A study of Homo sapiens with 12 samples.

Results

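The high mobility group (HMG) chromatin proteins are represented here by 10 of the 58037 genes in the deposited count table, of which 56993 identifiers could be given a symbol. The 10 genes are HMGB1, HMGB2, HMGB3, HMGA1, HMGA2, HMGN1, HMGN2, HMGN3, HMGN4 and HMGN5. They were picked by name from an earlier look at the same libraries, on counts that differed between doxycycline (DOX) and vehicle. Their DOX differences are therefore given as a description, without p-values.

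The study asked what silencing of MUC1, which encodes a transmembrane mucin with an oncogenic C-terminal subunit (MUC1-C), does to gene expression in 2 human prostate cancer cell lines. DU-145 is an established androgen-independent line. LNCaP-AI is an androgen-independent line that the study obtained by prolonged culture of C4-2B cells, which derive from LNCaP cells. RNA-seq was performed on 3 samples per group, 12 in all. Every group, controls included, carried a tetracycline-inducible MUC1 shRNA (tet-MUC1shRNA). The labels give phenol red-free medium with charcoal-stripped serum for both lines, whereas the study's methods name it for LNCaP-AI and whole serum for routine culture of DU-145. The control groups (shCTL in the labels) received vehicle and the silenced groups (shMUC1 in the labels) received 500 ng/ml DOX, in both cases for 7 days. No library of a control shRNA with DOX was analysed here, and thus the drug and the silencing of MUC1 cannot be told apart. The labels name triplicate cultures and nothing further, so the spread between samples may be partly technical.

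HMG proteins are small, abundant chromatin proteins that change the shape of DNA or of the nucleosome rather than reading a long sequence. HMGB proteins carry paired HMG boxes that bend DNA, and HMGB1 released from cells also acts as an alarmin. HMGA proteins hold AT-hooks that bind AT-rich minor grooves, are plentiful in embryonic and tumour cells, and HMGA2 is the classic target of the let-7 microRNAs. HMGN proteins bind nucleosomes directly and compete with linker histone H1.

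Most promoters of the family held a short element that entered neither the choice of genes nor the counts. RefSeq promoter windows on GRCh38.p14 were found for 8 of the 10 genes, with none for HMGB2 and HMGA2, and gave 12 windows of 250 bases before an annotated start. The CCAAT box, bound by the NF-Y complex, was searched as CCAAT on both strands. It lay in 7 of the 12 windows, against 32.0% of all 35116 windows, and these windows belonged to 6 of the 8 genes. At least 3 copies lay in 2 windows, those of HMGB1 and HMGB3, against 2.93% of all windows. Both are shown first, followed by a window with a single copy (HMGN2) and one with no match (HMGN5), each 5′ to 3′ on the gene's strand with every match in capitals.
HMGB1, chr13:30465937-30466186, minus strand: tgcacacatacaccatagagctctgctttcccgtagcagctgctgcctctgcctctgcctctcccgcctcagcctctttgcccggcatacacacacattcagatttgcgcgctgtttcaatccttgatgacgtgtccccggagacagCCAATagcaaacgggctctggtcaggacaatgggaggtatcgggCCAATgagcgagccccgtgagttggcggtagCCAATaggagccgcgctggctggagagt
HMGB3, chrX:150983085-150983334, plus strand: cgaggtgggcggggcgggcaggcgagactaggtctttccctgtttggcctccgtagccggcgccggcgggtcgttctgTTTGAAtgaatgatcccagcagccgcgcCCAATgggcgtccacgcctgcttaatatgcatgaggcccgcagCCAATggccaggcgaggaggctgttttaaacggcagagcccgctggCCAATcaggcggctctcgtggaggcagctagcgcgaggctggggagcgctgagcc
HMGN2, chr1:26472190-26472439, plus strand: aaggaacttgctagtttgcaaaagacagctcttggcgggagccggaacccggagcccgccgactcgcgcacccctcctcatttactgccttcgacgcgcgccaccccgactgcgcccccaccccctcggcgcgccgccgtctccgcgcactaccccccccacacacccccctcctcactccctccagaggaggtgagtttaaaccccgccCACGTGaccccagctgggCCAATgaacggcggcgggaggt
HMGN5, chrX:81201914-81202163, minus strand: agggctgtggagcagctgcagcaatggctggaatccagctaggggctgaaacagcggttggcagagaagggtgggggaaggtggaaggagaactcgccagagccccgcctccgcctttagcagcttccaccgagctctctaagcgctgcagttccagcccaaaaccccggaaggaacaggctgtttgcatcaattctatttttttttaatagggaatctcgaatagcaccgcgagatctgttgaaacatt
The copies in HMGB1 began 28, 59 and 103 bases before the start, and those in HMGB3 began 55, 101 and 144 bases before it. HMGB3 also held TTTGAA, which with TTCGAA spells the cell cycle homology region (CHR) element of late cell cycle genes. This element was present in 2 of the 12 windows, from HMGB1 and HMGB3, beside 14.3% of all windows. The match of HMGB1 lay 246 bases before another start, in a window not printed here. HMGN2 held the E-box CACGTG 40 bases before its start, the only E-box among the family, against 6.3% of all windows. TATAAA, found in 10.7% of windows, and the E2F-type octamers TTTCCCGC, TTTCGCGC, TTTGGCGC and TTTGCCGC, found in 2.8%, were in none of the 12. Windows with a CCAAT box belonged to HMGB1, HMGB3, HMGA1, HMGN1, HMGN2 and HMGN3, and those of HMGN4 and HMGN5 held none of the searched elements. None of the matches overlapped another. A match of letters is a description and shows no binding.

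Sequencing depth and the identity of the cells bear on every value below. Libraries held 10423437 to 13544153 counts in DU-145 and 16569613 to 26961777 counts in LNCaP-AI. MUC1 had 74, 60 and 59 counts in DU-145 with vehicle and 3 in each DOX sample, and 36, 25 and 52 counts in LNCaP-AI with vehicle against 8, 6 and 3 with DOX. MUC1 was lower with DOX in both DU-145 (log2 fold change -4.39) and LNCaP-AI (-2.50). It met the minimum of 10 counts in 3 samples only through the vehicle samples, so its fall is given as a description. KLK3, KLK2 and FOLH1, defining transcripts of LNCaP-derived cells, had no counts in any DU-145 sample and were present in all LNCaP-AI samples. On the first principal component of LNCaP-AI (80.5% of the variance), vehicle 1 lay with DOX 2 and DOX 3, and vehicle 2 and vehicle 3 lay with DOX 1. This division crosses the treatment, and the LNCaP-AI differences of the HMG genes are given also within both sides of it, on the log2(CPM + 0.5) scale. On that scale MUC1 differed by -1.49 between vehicle 1 and the mean of DOX 2 and DOX 3, and by -1.32 on the other side.

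With vehicle, the family spanned a wide range of levels, and HMGA1 led it in both lines. Per transcript length, HMGA1 stood at 609 ± 82.5 TPM (SD, n = 3), a unit scaled for transcript length and library size, in DU-145 and 728 ± 320 TPM in LNCaP-AI. HMGN1 followed at 458 ± 39.3 and 395 ± 60.1 TPM. HMGA2, the other AT-hook gene, was the lowest of the family in both lines, at 3.42 ± 0.589 TPM in DU-145 and 7.40 ± 6.50 TPM in LNCaP-AI. In DU-145, HMGB2 (167 TPM) and HMGN2 (161 TPM) overlapped, as did HMGB3 (114 TPM), HMGN4 (114 TPM), HMGB1 (114 TPM) and HMGN3 (107 TPM) each with the next in the order, above HMGN5 (16.8 TPM). In LNCaP-AI the order after HMGN1 was HMGB2 (384 TPM), HMGN2 (246 TPM), HMGB1 (182 TPM), HMGN3 (132 TPM), HMGN5 (121 TPM), HMGB3 (109 TPM) and HMGN4 (77.3 TPM). There the samples of HMGA1 and HMGN1 overlapped, as did those of HMGN1 and HMGB2, HMGN2 and HMGB1, HMGN3 and HMGN5, and HMGN5 and HMGB3. The order depends on the length used. With the merged exons of all transcripts in place of the canonical transcript, HMGN1 moved from rank 2 to rank 6 in LNCaP-AI (162 TPM) and HMGA1 and HMGA2 kept the ends.

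**Figure D1:**
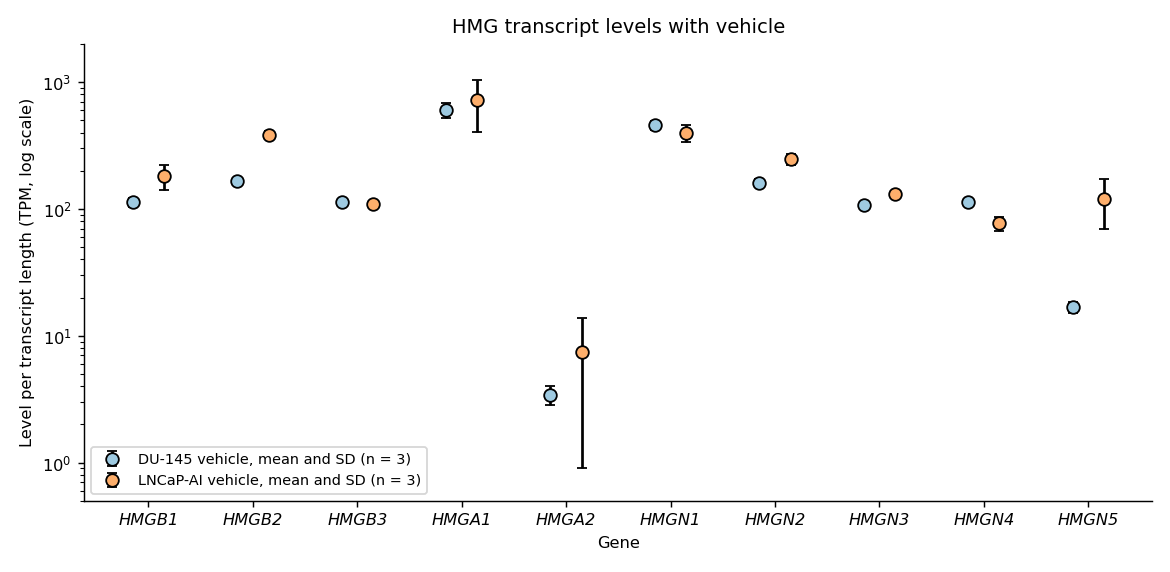
Level per transcript length of the 10 HMG genes with vehicle (TPM, log axis), with DU-145 in blue and LNCaP-AI in orange. Points are means of 3 samples and bars are SD. HMGA1 was highest in both lines (609 and 728 TPM), HMGA2 lowest (3.42 and 7.40 TPM), and HMGN5 differed most between the lines (16.8 and 121 TPM).

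The vehicle samples of LNCaP-AI were set against those of DU-145 in edgeR's quasi-likelihood test, a contrast that the choice of genes did not use, although its samples are also the controls of the DOX comparisons. Of the 10 genes 4 were higher and 3 lower in LNCaP-AI than in DU-145, beside 65.1% of 15628 tested genes called, 35% higher and 30.2% lower. HMGN5, a nucleosome-binding protein with a long acidic tail, showed the largest difference. It stood at 17.2, 15.4 and 15.4 CPM, counts scaled for library size, in DU-145 and at 144, 77.3 and 79.6 CPM in LNCaP-AI, 6.12-fold higher (log2 difference 2.61 ± 0.26 SE, edgeR adjusted p = 0.000133). No LNCaP-AI sample came near the DU-145 range. HMGB2, the HMG-box protein tied to dividing cells, was 1.98-fold higher in LNCaP-AI (0.99 ± 0.10 SE, edgeR adjusted p = 0.000164). HMGB1 (0.46 ± 0.14 SE, edgeR adjusted p = 0.0244) and HMGN2 (0.40 ± 0.12 SE, edgeR adjusted p = 0.0194) were higher by smaller margins. HMGN4, which arose as a retroposed copy of HMGN2, was lower in LNCaP-AI (-0.77 ± 0.12 SE, edgeR adjusted p = 0.00105). HMGN1 (-0.43 ± 0.11 SE, edgeR adjusted p = 0.00953) and HMGB3 (-0.29 ± 0.08 SE, edgeR adjusted p = 0.0144) were lower as well. The calls of HMGB1 and HMGN2 were lost when any single DU-145 vehicle sample was left out, and those of HMGB3 and HMGN1 when LNCaP-AI vehicle 2 or vehicle 3 was.

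HMGA1, HMGA2 and HMGN3 showed no difference past the threshold between the lines. The HMGA1 difference was 0.06 ± 0.33 SE and that of HMGN3 was 0.07 ± 0.09 SE. HMGA2 had 90, 60 and 68 counts in DU-145 with vehicle and 1, 383 and 483 counts in LNCaP-AI with vehicle. Its difference of 0.92 ± 1.15 SE averages over a sample almost without HMGA2 and a pair with more than DU-145, and without LNCaP-AI vehicle 1 it became 1.57 and passed the threshold. HMGA1 also passed the threshold without that sample, at 0.44.

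In DU-145, DOX went with less of the HMGB transcripts, more of both HMGA transcripts and a divided response of the HMGN transcripts. Of the 10 genes 6 were called lower and 4 higher, beside 51.5% of 13644 tested genes called, 25.3% lower and 26.3% higher. DOX and vehicle samples did not overlap for any of the 10, which was the case for 57.3% of tested genes. Since these counts chose the genes, nothing is read from them. All 10 genes had at least 10 counts in 3 samples in each comparison, HMGA2 in LNCaP-AI in exactly 3. In bulk RNA, fewer cells of a kind and less RNA per cell cannot be told apart.

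HMGB2 (chr4:173331376-173334432, minus strand) had the largest decrease of the family in DU-145. It stood at 108, 112 and 108 CPM with vehicle and at 52.0, 55.0 and 49.5 CPM with DOX, 2.08-fold lower (log2 fold change -1.06 ± 0.07 SE). The DOX samples held about as much as each other, and none reached the vehicle range. HMGB1 (chr13:30456704-30617597, minus strand), an abundant HMG-box protein, stood at 279, 267 and 297 CPM with vehicle and at 212, 194 and 194 CPM with DOX, 1.40-fold lower (-0.49 ± 0.07 SE). HMGB3 (chrX:150980509-150990771, plus strand), which is linked to stem and progenitor cells, stood at 185, 183 and 179 CPM with vehicle and at 143, 131 and 123 CPM with DOX, 1.37-fold lower (-0.45 ± 0.07 SE). All HMGB genes were thus lower in every DOX sample, and their summed level per length went from 395 ± 17.2 to 239 ± 14.0 TPM.

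The HMGA genes were higher with DOX in DU-145 by about the size that HMGB2 was lower. HMGA1 (chr6:34236873-34246231, plus strand) stood at 590.3, 515 and 485 CPM with vehicle and at 1036, 1105 and 976 CPM with DOX, 1.97-fold higher (0.98 ± 0.08 SE). HMGA2 (chr12:65824460-65966291, plus strand) rested on few counts, 90, 60 and 68 with vehicle and 140, 190 and 166 with DOX. On the CPM scale it stood at 7.38, 6.07 and 5.71 against 13.2, 15.0 and 14.7 CPM, 2.25-fold higher (1.17 ± 0.14 SE). The lowest DOX sample lay above the highest vehicle sample for both genes. Their summed level per length, nearly all of it HMGA1, went from 612 ± 83.0 to 1177 ± 84.1 TPM.

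HMGN1, HMGN2 and HMGN3 were lower with DOX in DU-145, and HMGN4 and HMGN5 were higher. HMGN2 (chr1:26472440-26476642, plus strand) stood at 148, 141 and 137 CPM with vehicle and at 99.96, 91.8 and 97.6 CPM with DOX (-0.55 ± 0.07 SE). HMGN3 (chr6:79201245-79234689, minus strand) stood at 45.0, 49.6 and 45.9 CPM with vehicle and at 32.9, 28.7 and 33.0 CPM with DOX (-0.56 ± 0.09 SE). HMGN1 (chr21:39342315-39349647, minus strand), which lies in the Down syndrome region, stood at 270.2, 249.7 and 273 CPM against 205, 217 and 212 CPM (-0.32 ± 0.07 SE). These 3 moved by 1.25- to 1.48-fold, less than HMGB2. HMGN5 (chrX:81113699-81201913, minus strand) stood at 17.2, 15.4 and 15.4 CPM with vehicle and at 21.3, 23.7 and 22.1 CPM with DOX (0.49 ± 0.10 SE). HMGN4 (chr6:26538366-26546933, plus strand) had the smallest difference of the family, with 96.2, 102 and 103 CPM against 119.9, 114 and 117 CPM (0.23 ± 0.07 SE). The HMGN sum went from 857 ± 50.8 to 691 ± 2.38 TPM. HMGN1 was its largest part by canonical transcript length. With merged exons HMGN4 lay above HMGN1 in DU-145 with DOX (207 against 147 TPM).

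**Figure D2:**
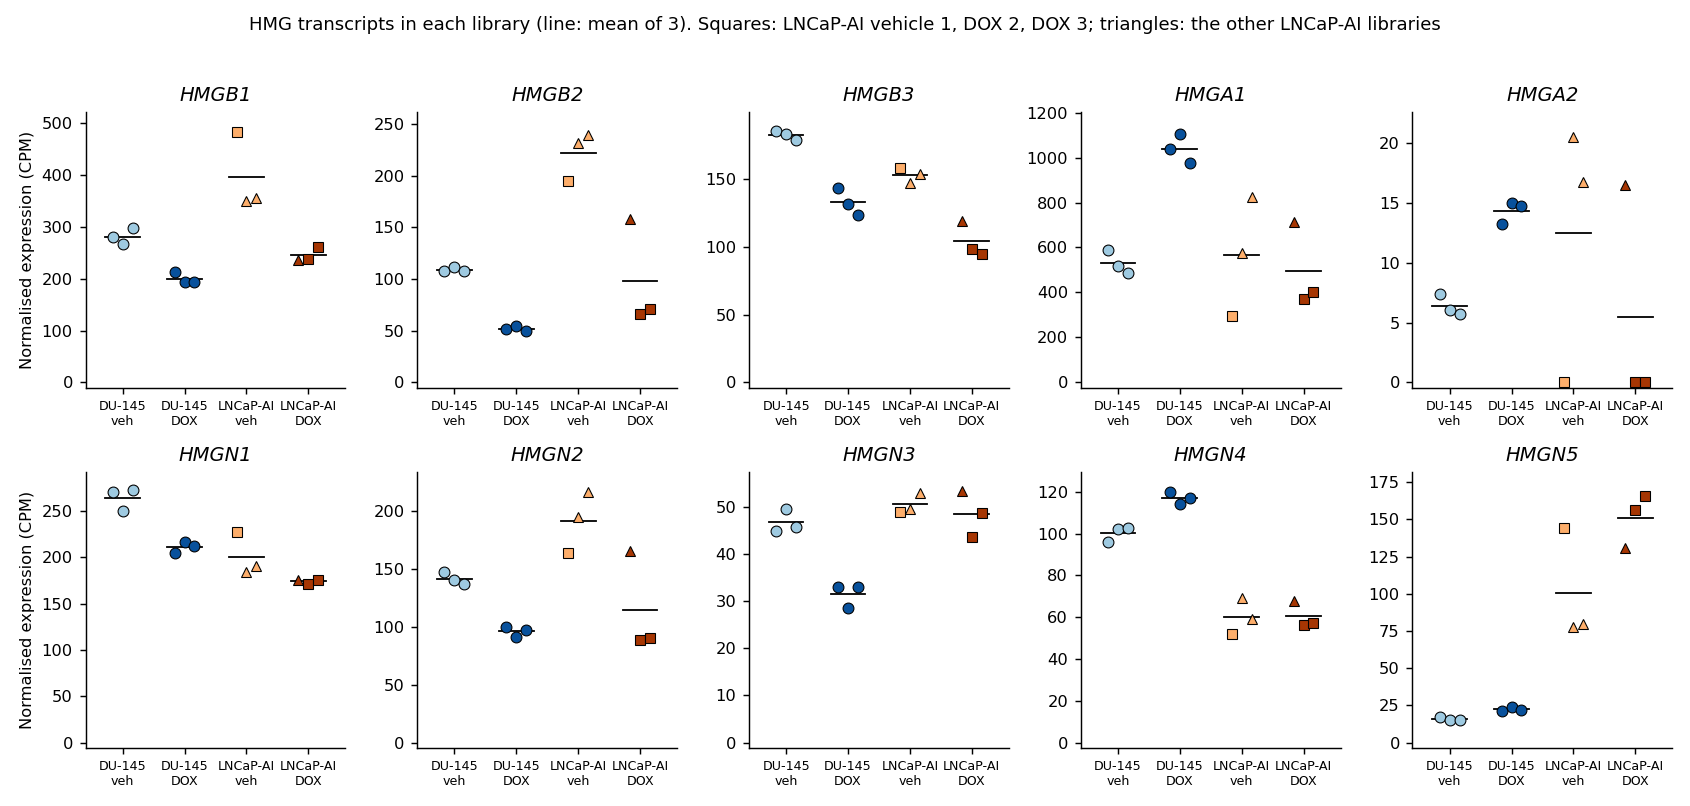
Normalised expression (CPM, linear axes from 0) of each HMG gene in all 12 samples, with the mean of each group as a line. Squares mark LNCaP-AI vehicle 1, DOX 2 and DOX 3, and triangles mark LNCaP-AI vehicle 2, vehicle 3 and DOX 1. DU-145 groups are apart in every panel, whereas HMGA2 in LNCaP-AI lies at 16.5 to 20.5 CPM in the triangles and at 0 to 0.0446 CPM in the squares.

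In LNCaP-AI, HMGB1 and HMGB3 were the 2 genes called with DOX, both lower, beside 12.7% of 16030 tested genes called, 5.52% lower and 7.22% higher. Their groups and those of HMGB2 and HMGN1 did not overlap, 4 of 10 genes beside 38.1% of tested genes. HMGB1 stood at 482, 350.5 and 355 CPM with vehicle and at 236, 239 and 262 CPM with DOX, 1.65-fold lower (-0.72 ± 0.15 SE). HMGB3 stood at 158, 147 and 154 CPM with vehicle and at 119, 98.0 and 94.7 CPM with DOX, 1.5-fold lower (-0.58 ± 0.11 SE). HMGB2 was lower in all 3 DOX samples, but DOX 1 stayed close to vehicle. It stood at 195, 232 and 239.9 CPM with vehicle and at 158, 66.3 and 70.8 CPM with DOX, 2.30-fold lower (-1.20 ± 0.35 SE). The HMGB2 difference was -1.69 and called without DOX 1. The calls of HMGB1 and HMGB3 were lost without DOX 2 and without DOX 3, where 1 gene in all was called in LNCaP-AI, and that of HMGB3 also without vehicle 3. Since no DOX sample of the HMGB genes reached the vehicle range, a negative sign within the sides of the division was fixed in advance. Only the sizes are therefore of interest. They rest on vehicle 1 as the only vehicle sample of its side and on DOX 1 as the only DOX sample of the other. HMGB1 differed by -0.95 on the side of vehicle 1 and by -0.58 on the other side. HMGB2 differed by -1.50 and -0.58, and HMGB3 by -0.71 and -0.34. The HMGB sum per length went from 675 ± 20.6 to 324 ± 82.4 TPM.

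HMGA2 in LNCaP-AI was present or nearly absent by sample, and not by treatment. In the vehicle samples it had 1, 383 and 483 counts, and in the DOX samples 404, 0 and 0. A count of 0 allows up to 3 counts per library, so absence is not shown. The fitted difference of -1.18 ± 2.30 SE describes no sample. Within the sides of the division, where either both groups have HMGA2 or neither does, the differences were -0.12 and -0.17 on the log2(CPM + 0.5) scale. RPSAP52, a transcribed pseudogene antisense to HMGA2 that shares no exon bases with it, followed the same samples with 0, 35 and 36 counts with vehicle and 33, 0 and 0 with DOX. HMGA2-AS1, which shares 384 exon bases with HMGA2, had 0, 6 and 5 counts with vehicle and 9, 0 and 0 with DOX.

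HMGA1 followed the same division at a high level. It stood at 296, 576 and 825 CPM with vehicle and at 715, 371 and 400.2 CPM with DOX, so that the treatment groups overlapped (-0.21 ± 0.42 SE). Within the sides HMGA1 differed by 0.38 and 0.05. Both lie below the 0.98 of HMGA1 in DU-145. The HMGA sum per length was 735 ± 325 TPM with vehicle and 588 ± 222 TPM with DOX.

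Of the HMGN genes in LNCaP-AI, HMGN2 and HMGN5 differed most with DOX, and their groups overlapped. HMGN2 stood at 164, 195.5 and 216 CPM with vehicle and at 166, 88.5 and 90.5 CPM with DOX (-0.76 ± 0.27 SE), and within the sides it differed by -0.87 and -0.31. Without DOX 1 its difference was -1.10 and called. HMGN5 stood at 144, 77.3 and 79.6 CPM with vehicle and at 131, 156 and 166 CPM with DOX (0.55 ± 0.27 SE). Most of that difference lay between DOX 1 and its side, at 0.73, and 0.16 was found between vehicle 1 and DOX 2 and DOX 3. Without vehicle 1 the HMGN5 difference was 0.92 and called. HMGN1 stood at 227, 184 and 190.3 CPM with vehicle and at 176, 172 and 175 CPM with DOX (-0.23 ± 0.11 SE), and within the sides it differed by -0.39 and -0.09. HMGN3, with 49.1, 49.7 and 52.9 CPM against 53.5, 43.7 and 48.7 CPM (-0.08 ± 0.10 SE), and HMGN4, with 52.1, 69.4 and 59.4 CPM against 67.7, 56.1 and 57.5 CPM (-0.02 ± 0.13 SE), differed least. Within the sides HMGN3 differed by -0.09 and 0.06, and HMGN4 by 0.12 and 0.08. The HMGN sum went from 971 ± 82.2 to 794 ± 43.4 TPM.

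**Figure D3:**
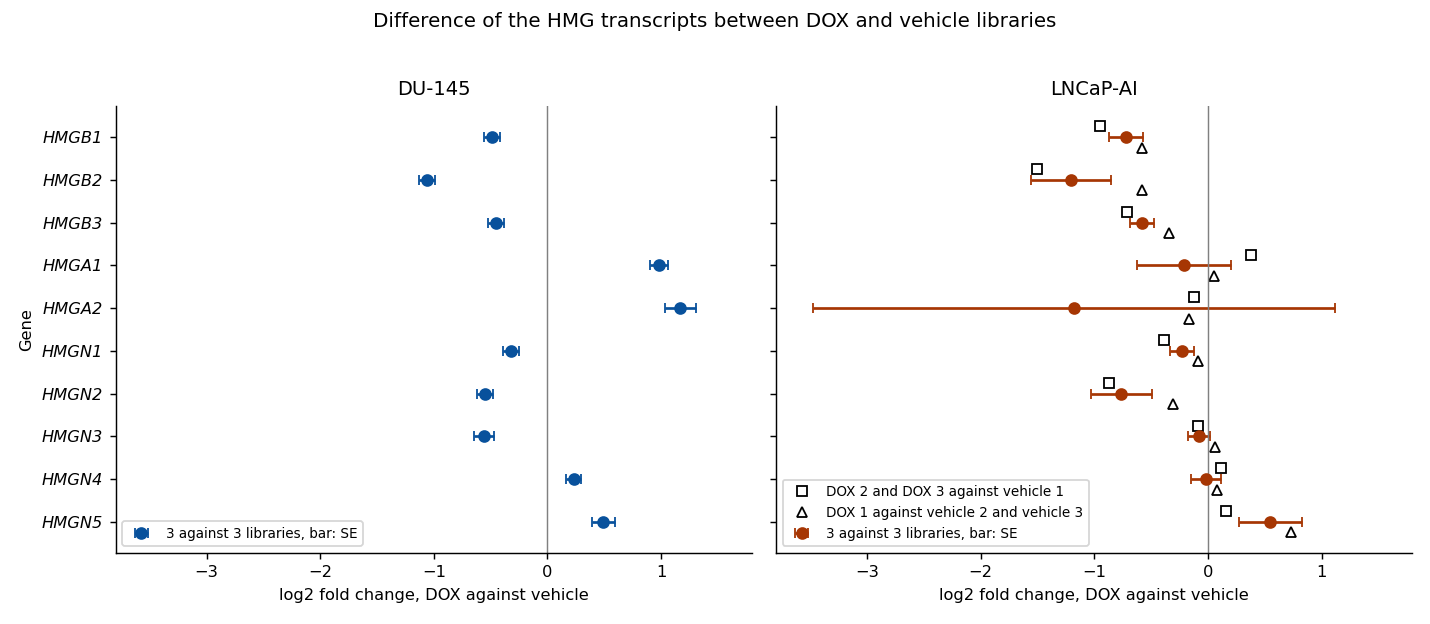
Log2 fold change of the 10 HMG genes with DOX against vehicle in DU-145 (left) and LNCaP-AI (right). Filled points with SE bars come from the edgeR fit of 3 against 3 samples, and open squares and triangles are the LNCaP-AI differences within the sides of the division on the log2(CPM + 0.5) scale. HMGA1 and HMGA2 sit at 0.98 and 1.17 in DU-145, and in LNCaP-AI the bar of HMGA2 (SE 2.30) crosses 0. HMGB1, HMGB2 and HMGB3 lie below 0 in all 3 LNCaP-AI estimates, which follows from their groups not overlapping.

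Set side by side, the 2 lines gave the same sign for the HMGB genes, HMGN1, HMGN2, HMGN3 and HMGN5. HMGA1, HMGA2 and HMGN4 had a positive difference in DU-145 and a negative one in the LNCaP-AI fit, but within both sides of the LNCaP-AI division HMGA1 and HMGN4 were positive too. HMGN3 was positive on 1 of those sides. The difference between the DOX effects of the lines (LNCaP-AI minus DU-145) was called for 1 of the 10 genes, HMGN3 at 0.51 ± 0.13 SE, beside 9.18% of 16800 tested genes. It was -1.16 ± 0.46 SE for HMGA1 and -2.31 ± 2.23 SE for HMGA2. Leaving out 1 sample moved the HMGA2 value between -11.78 (without LNCaP-AI DOX 1) and -1.73, and the HMGA1 value was called without LNCaP-AI vehicle 1 (-1.47) and without LNCaP-AI DOX 1 (-1.52). For the other 7 genes it lay between -0.22 and 0.12.

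Other transcripts divided the LNCaP-AI samples as HMGA2 did. The samples of the sides did not overlap for 6 of the 10 HMG genes (HMGA1, HMGA2, HMGN2, HMGN3, HMGN4 and HMGN5) and for 35.2% of 16030 genes. HMGA2 was 1 of 136 genes with at least 10 CPM in vehicle 2, vehicle 3 and DOX 1 and under 0.5 CPM in the others, and 0 genes had the opposite pattern. These limits were set after the values were seen. IGF2BP2, an mRNA-binding protein gene known as an HMGA2 target, stood at 60.3 to 66.3 CPM where HMGA2 was present and at 1.97 to 2.28 CPM where it was not. CD44 stood at 69.5 to 83.6 CPM against 0 to 0.169 CPM, and TLR4, a receptor of extracellular HMGB1, at 16.5 to 18.9 CPM against 0 to 0.0893 CPM. DU-145 had no TLR4 counts in any sample. The summed level of 6 markers of DU-145 cells was 878 to 975 CPM in vehicle 2, vehicle 3 and DOX 1 and 160.5 to 360.5 CPM in the others, beside 2499 to 2925 CPM in DU-145. VIM was the marker among them whose sides overlapped, and S100A2 was higher where HMGA2 was present (37.2 to 46.6 CPM) than in DU-145 itself (5.0 to 7.56 CPM). The summed level of 5 markers of LNCaP-derived cells was 1092 to 2140 CPM in vehicle 2, vehicle 3 and DOX 1 and 1681 to 2847 CPM in the others, with none at 0. By treatment that sum was 1092 to 1681 CPM with vehicle and 2140 to 2847 CPM with DOX. The part of these genes in the HMG values was not tested.

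**Figure D4:**
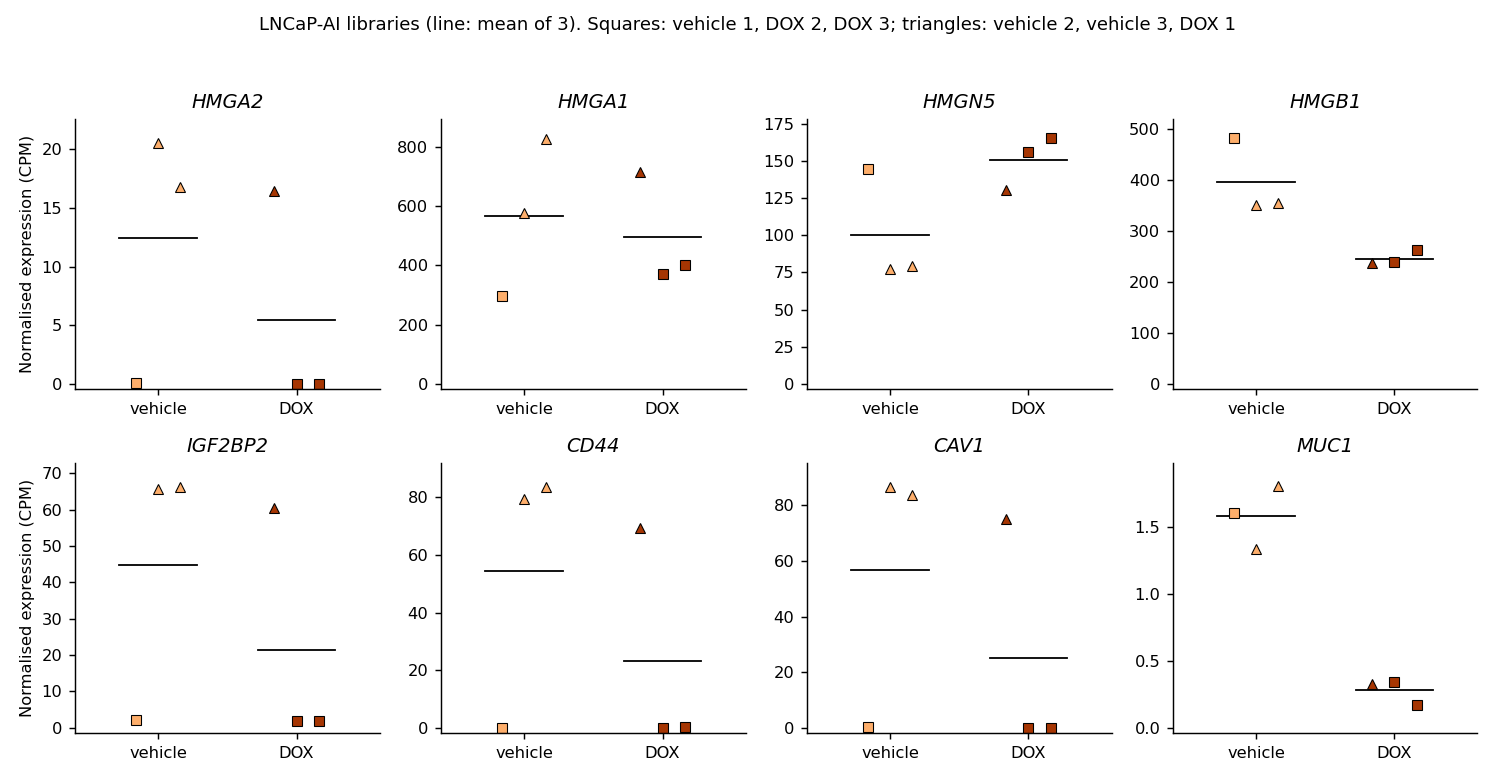
Normalised expression (CPM, linear axes from 0) of 4 HMG genes and 4 other genes in the 6 LNCaP-AI samples, with the mean of each treatment group as a line. Squares are vehicle 1, DOX 2 and DOX 3, and triangles are vehicle 2, vehicle 3 and DOX 1. HMGA2, IGF2BP2, CD44 and CAV1 are near 0 in every square (CAV1 at 0.0564 to 0.268 CPM, against 75.2 to 86.5 CPM in the triangles), and MUC1 separates by treatment.

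Some proliferation transcripts fell beside the HMGB genes in DU-145, and most of those listed did in LNCaP-AI. The summed level of 8 proliferation markers was 4400 to 4644 CPM in DU-145 with vehicle and 3310 to 3519 CPM with DOX, and 2683 to 2834 CPM in LNCaP-AI with vehicle and 1198 to 1788 CPM with DOX. By edgeR's quasi-likelihood test, 4 of the 8 fell in DU-145, among them TOP2A (-0.69), CCNB1 (-0.64) and CDK1 (-0.43), and none rose. The other 4 were not called there, with MCM2 at 0.07. The sums lean on the most abundant markers, as TOP2A alone had a mean of 1458 CPM in DU-145 with vehicle. In LNCaP-AI 5 of the 8 fell, among them CCNB1 (-1.0), CDK1 (-0.88) and MCM2 (-0.80), and none rose. Within the sides of the division these 3 differed by -1.18 and -0.66, by -1.11 and -0.74, and by -1.01 and -0.55. The shares of all tested genes that fell were 25.3% and 5.52%. The median over the list was -0.28 in DU-145 and -0.93 in LNCaP-AI, beside 0.00 and -0.05 over all tested genes. Over the 12 samples, centred within each line, the genes nearest to HMGB2 among 12984 were KIF15, FAM72B and NEIL3, with root mean square differences of 0.058, 0.082 and 0.086 in log2 units. For HMGN2 they were ANTXR1 (0.067), CNTRL (0.078) and MCM4 (0.086), and for HMGA1 they were SECTM1 (0.089), EHD1 (0.111) and IQCG (0.116). The part of proliferation in the HMG values was not tested.

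Of 28 other genes with an HMG box, 23 were tested in DU-145. With DOX 11 of them fell and 4 rose by edgeR's quasi-likelihood test, with a median of -0.21, beside 25.3% and 26.3% of all tested genes. PBRM1, a chromatin remodelling subunit, fell by 0.56 on the log2 scale, and SOX9 (0.85) and HMGXB3 (0.52) rose. In LNCaP-AI 3 of 23 fell and 1 rose, with a median of -0.33, beside 5.52% and 7.22% of all tested genes. WDHD1 (-1.04), a replication factor, and HMGXB4 (-0.44) fell there, and SOX4 (0.44) rose. Within the sides of the division WDHD1 differed by -1.23 and -0.56, HMGXB4 by -0.50 and -0.26, and SOX4 by 0.42 on each.

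Partners of the HMG proteins were tested in the same fits, in which 51.5% of all tested genes were called in DU-145 and 12.7% in LNCaP-AI, and their counts are to be read against those shares. Of 7 tested SET complex and transport partners of the HMGB proteins, SET (-0.39) and the export receptor XPO1 (-0.35) were among 3 that fell in DU-145, and the importin KPNA1 (0.36) rose. In LNCaP-AI, SET (-0.47, and -0.53 and -0.27 within the sides) and KPNA2 (-0.73, and -0.84 and -0.48 within the sides) fell and none of the 7 rose. Of 5 tested receptors of extracellular HMGB1, AGER (-1.65), which encodes RAGE, and CD24 (-0.71) fell in DU-145. THBD (1.59), whose product thrombomodulin binds HMGB1, was 1 of 2 that rose. AGER rested on few counts, 20, 16 and 33 with vehicle and 6, 11 and 5 with DOX. It met the count minimum mainly through the vehicle samples, so its fall is given as a description. Of 6 receptors tested in LNCaP-AI none was called. Around HMGA2, 4 of 8 tested let-7 axis genes rose in DU-145, among them ARID3B (1.5), DICER1 (0.55) and IGF2BP2 (0.48), and 2 fell. In LNCaP-AI 1 of 7 was called, IGF2BP3, which fell by 0.66 on the log2 scale and differed by -0.57 and -0.58 within the sides. Of the linker histone H1 genes, whose products compete with HMGN proteins, H1-10 (-0.61) fell and H1-2 (0.24) rose in DU-145, and neither was called in LNCaP-AI (-0.33 and 0.95, with -0.53 and -0.25, and 0.65 and 1.01, within the sides).

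Counts of the family can share reads with its processed copies. The annotation holds 157 pseudogenes named for the 10 genes, 48 of them for HMGB1, 38 for HMGN2, 32 for HMGN1 and 29 for HMGB3, and 85 had counts. At least 10 counts in 3 samples were reached by 10 pseudogenes in LNCaP-AI and by 3 in DU-145. HMGN2P46 had the most, with 1761 counts over all samples, then HMGB1P5 (868) and HMGB1P6 (831). HMGN2P46 had 3 to 8 counts per sample in DU-145 and 192 to 330 in LNCaP-AI, with 295 in DOX 2 and 315 in DOX 3. Whether any of these counts are shared reads was not tested. Pseudogene counts came to 6.52% of the HMGN2 counts (0.444% to 20.2% by sample) and 4.78% of the HMGB1 counts, and to at most 1.02% for each of the others. With those counts added to their parent gene, all 10 genes were again called in DU-145 and the same number, 2, in LNCaP-AI. HMGN3 shares 144 exon bases with the antisense transcript HMGN3-AS1, and the strand setting of the counting is not given in the sources used here.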

How the data were processed

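RNA-seq counts were analysed as deposited. The authors prepared TruSeq stranded mRNA libraries, and the submitters' processing notes name CASAVA 1.8.2, STAR 2.7.0, GRCh38.p7 and DESeq2 1.24.0. The deposited unit is the raw read count per Ensembl gene. The counting tool, its strand setting and its handling of multi-mapped reads are not given in the sources used here. Symbols, lengths and overlaps came from a GENCODE annotation of GRCh38 and promoters from RefSeq on GRCh38.p14.

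Genes with at least 10 counts in 3 samples were kept per comparison, and each comparison was fitted on its own groups across all genes with edgeR 4.0.16 (R 4.3.3), using TMM normalization and the quasi-likelihood F-test. A call is a Benjamini-Hochberg adjusted p below 0.05. CPM values use TMM factors over all 12 samples, TPM values the canonical transcript length. No sample was dropped or imputed. A few measured genes are not reported here. The fit was tested on simulated counts. The HMG genes, gene lists, motifs and tests were chosen with earlier results of these data known. Named genes are the 10 HMG genes, MUC1, of each list and line at most 3 called genes with the smallest adjusted p, 3 pseudogenes with the most counts and 3 nearest genes for HMGB2, HMGA1 and HMGN2. IGF2BP2, CD44, CAV1, TLR4, VIM, S100A2, KLK3, KLK2, FOLH1 and the transcripts overlapping HMGA2 and HMGN3 were named after their values were seen. Alternatives were DESeq2 1.42.0, its size factors, upper-quartile normalization, 2 other filters, pseudogene counts added, all samples in 1 fit, the replicate block and leaving out each sample.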

Additional observations from a re-analysis of the deposited data

Results flagged for a closer look

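The DOX effect differed between the lines for 1 HMG gene and 6 other genes among those checked. The test was the interaction term of edgeR's quasi-likelihood fit over all 12 samples. Those checked were the genes of the naming rule and 9 named after their values were seen. The HMG gene is 1 of 10, near the 9.18% of 16800 tested genes that were called. The 6 other genes cannot be set beside that share. Most were named by their DOX calls, and genes called outside those checked are not counted. HMGN3, whose DOX comparison had been used to choose it and which is given without a p, differed by 0.51 on the log2 scale (LNCaP-AI minus DU-145). It was lower in all 3 DOX samples of DU-145, and its groups overlapped in LNCaP-AI. This call was lost in 9 of the 12 fits that left out 1 sample and in the fits with no filter or with the replicate block.

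Of the other genes, MUC1 itself differed by 1.95, with 3 counts in each DU-145 DOX sample and 3 to 8 in those of LNCaP-AI. It met the count minimum only through the vehicle samples, so this value is a description without a p. Its mean with vehicle was 5.70 CPM in DU-145 and 1.58 CPM in LNCaP-AI. With DOX the means were 0.262 and 0.279 CPM, both near the floor, so weaker silencing in LNCaP-AI is not shown. THBD differed by -1.78, with 1.59 in DU-145 and -0.21 in LNCaP-AI. ARID3B differed by -1.03 and MCM2 by -0.84. SOX4 differed by 0.76. VIM, which was named after its values were seen, differed by 1.53. Apart from MUC1 and VIM, these genes were named by their DOX calls within a line, from which the interaction is also made. The differences are therefore given without a p, and all rest on the LNCaP-AI samples that divide across treatment.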

How the results depend on the processing

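The direction of the DOX difference held for all 10 HMG genes in DU-145 under every alternative run. These genes were chosen on that difference and their groups did not overlap, so a change of direction was hardly possible. Genes called there numbered 7033, and 4083 in a single fit of the 12 samples, where 5 of the 10 HMG genes remained (HMGB1, HMGB2, HMGB3, HMGN1 and HMGN3). In LNCaP-AI, 2043 genes and 2 HMG genes were called, against 3337 and 4 with DESeq2 and 3933 and 4 in the single fit. Leaving out samples moved the LNCaP-AI counts from 1 (without DOX 2 or without DOX 3) to 3538 (without DOX 1), with 994 without vehicle 3 and 1096 without vehicle 2, and the HMG genes called from 0 to 4. The difference of the DOX effect between lines was called for 1543 genes and 1 HMG gene, for 884 and 0 with no filter, and for 2 HMG genes with DESeq2. Leaving out samples gave 737 (without LNCaP-AI DOX 3) to 3471 (without LNCaP-AI DOX 1) genes and 0 to 5 HMG genes.

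Same-numbered samples did not deviate together, with correlations of -0.100 to 0.139 in DU-145 and -0.944 to -0.823 in LNCaP-AI, so the numbers were not taken as pairs. With a replicate block edgeR called 6924 genes in DU-145, 9378 between the lines, 52 for the difference of the DOX effect with 0 HMG genes, and 0 in LNCaP-AI with 0 HMG genes, where 2909 genes had an unadjusted p below 0.05.

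Signs changed for small differences. HMGN4 in LNCaP-AI became 0.03 with upper-quartile normalization and 0.00 in the single fit, and ranged from -0.11 to 0.08 over left-out samples. HMGA1 in LNCaP-AI ranged from -0.56 to 0.15 (without vehicle 3). Between the lines HMGA1 was -0.05 with the replicate block and ranged from -0.25 to 0.44. The LNCaP-AI value of HMGA2 kept its sign but ranged from -6.37 to -0.60 over all alternatives. The difference of the DOX effect over left-out samples ranged from -11.78 to -1.73 for HMGA2, from -0.63 to 0.11 for HMGB2 and from -0.06 to 0.45 for HMGN5. The line difference of HMGB3 was no longer called with upper-quartile normalization (-0.20) or no filter (-0.15), nor that of HMGN1 with no filter (-0.29) or of HMGN2 in the single fit (0.43). The causes were not tested. Depth limits HMGA2 most, with 0 to 483 counts a sample.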
